A study of Bos taurus with 16 samples.

Results

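SBK1, IFFO1, PRAME and FBXO41 are 4 bovine genes whose CpG sites were followed here one by one in endometrial cells taken around breeding. Their members were the 120 cytosine positions that carry one of these gene symbols, out of 199395 positions measured by reduced representation bisulfite sequencing (RRBS). The symbol SBK1 covered 33 sites, IFFO1 24, PRAME 29 and FBXO41 34. These genes were singled out because SBK1 and IFFO1 were more methylated, and PRAME and FBXO41 less methylated, in MET_P than in MET_noP, so that contrast is described below without a test.

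The samples were endometrial cytobrush samples of postpartum dairy cows, collected 4 to 8 h after an artificial insemination on days 50 to 64 postpartum. CON_P and CON_noP cows received a control diet, and MET_P and MET_noP cows were supplemented with rumen-protected methionine (RPM) from day 12 postpartum. The letter P stands for a pregnancy and noP for no pregnancy at a check 42 days after insemination, so the outcome was assigned after the cells were taken. Each group had 4 libraries, named here by the library number in the deposited table. The study isolated DNA from more cows than there are libraries, and how many cows a library holds is not given in the sources used here, so p-values below measure the spread between libraries. A cytobrush takes up a mixture of surface epithelium and other cells, and a shift in that mixture cannot be told apart from a change within 1 cell type.

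In mammals, cytosine methylation is laid down mostly at CpG sites, and its methyl group comes from S-adenosylmethionine, which cells make from methionine. Methylated promoters and CpG islands are usually silent, whereas methylation inside genes is common and does not by itself silence them. SBK1 is a serine/threonine protein kinase with a region that binds SH3 domains. IFFO1 is an intermediate filament family protein of the nucleus that binds lamins and DNA repair factors. PRAME is a cancer-testis antigen that acts as a substrate receptor of a CUL2 ubiquitin ligase and represses retinoic acid receptor signalling. FBXO41 is an F-box protein, the substrate-binding type of subunit in SCF ubiquitin ligases, best known from neurons.

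On the ARS-UCD1.2 assembly, the SBK1 sites lay on chromosome 25 between 25819078 and 25820454 (ENSBTAG00000032140). The IFFO1 sites lay on chromosome 5 between 103857860 and 103864144 (ENSBTAG00000030369). The PRAME sites lay on chromosome 17 between 71015995 and 71016559 (ENSBTAG00000033890), and the FBXO41 sites on chromosome 11 between 11168132 and 11185963 (ENSBTAG00000012759). The table gives the overlapping gene but neither strand nor exon and intron, which were not analysed here. PRAME belongs to a gene family with related copies. In the RefSeq gene table of a later assembly its symbol was found only as a synonym of other genes. How alike the copies are was not examined here, so reads of them may be mixed at these sites.

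Sites of a gene at most 300 bp apart were joined into a segment, and the segments with at least 3 sites numbered 10. Each gene had 1 main segment that held most of its intermediate values. The main segments were the 30 SBK1 sites from 25819947 to 25820454, the 16 IFFO1 sites from 103857860 to 103858049, the 17 PRAME sites from 71015995 to 71016061 and the 21 FBXO41 sites from 11181572 to 11181714. A segment value is the mean percent methylation over its sites in 1 library.

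**Figure D1:**
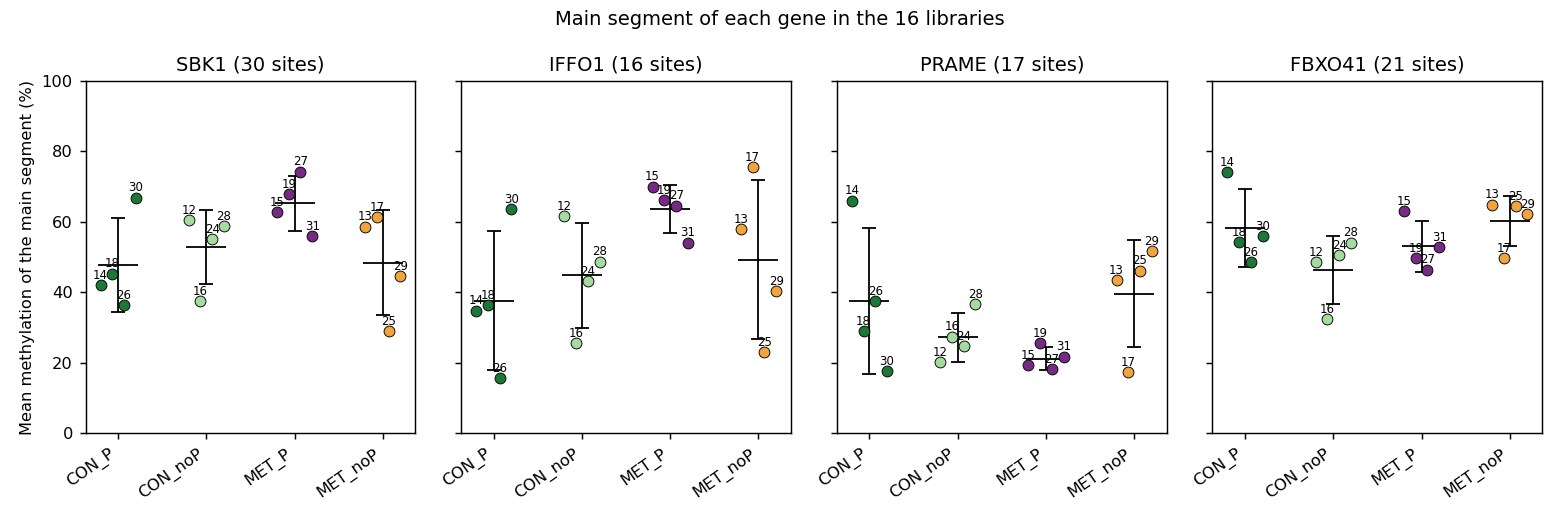
Mean methylation (%) of the main segment of each gene, with 1 point per library, the library number above it, and the group mean ± SD as a black line with bars (n = 4 libraries). For SBK1, MET_noP libraries 13 and 17 sit within the range of MET_P, for IFFO1 library 13 does and library 17 sits above it, and for both genes libraries 25 and 29 sit below all MET_P libraries. For PRAME, MET_noP library 17 sits below all MET_P libraries and the other 3 above.

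The SBK1 main segment was the more methylated in MET_P. Its level was 62.8%, 67.9%, 74.3% and 56.0% in MET_P libraries 15, 19, 27 and 31. In MET_noP libraries 13, 17, 25 and 29 it was 58.7%, 61.3%, 29.1% and 44.7%. The groups overlapped, since libraries 13 and 17 lay within the range of MET_P, and the MET_noP mean was pulled down by libraries 25 and 29. Mean levels of 65.3% ± 7.75 in MET_P and 48.4% ± 14.8 in MET_noP (SD, n = 4 each) were 16.83 percentage points apart. Without MET_noP library 25 the difference was 10.37 percentage points. With the control diet the segment was at 42.1%, 45.3%, 36.4% and 66.9% in CON_P libraries 14, 18, 26 and 30. CON_noP libraries 12, 16, 24 and 28 had 60.5%, 37.6%, 55.1% and 58.8%. The control-diet groups overlapped widely, with 1 high CON_P library (30) and 1 low CON_noP library (16).

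All 30 sites of the SBK1 main segment had the higher mean in MET_P, as did 51.8% of all sites in the table, and the difference was 5.0 to 27.1 percentage points. The segment fell into 3 runs of sites. The 12 sites from 25819947 to 25820020 were the less methylated run, at 48.0% ± 11.4 in MET_P and 27.8% ± 10.6 in MET_noP (SD, n = 4 each). The next 14 sites, to 25820294, were at 77.9% ± 6.27 and 61.6% ± 20.4, and the last 4 sites at 72.7% ± 2.58 and 64.3% ± 10.5. The mean difference was thus 20.21, 16.33 and 8.44 percentage points from the first run to the last, and 15.84, 7.56 and 3.79 without MET_noP library 25. This order did not hold for all positions. In the middle run the difference was 6.99 percentage points at the lower and 23.96 at the higher positions of pairs 1 bp apart. Beyond the annotated gene, 4 sites without a gene symbol began 9 bp after the last SBK1 site, and their difference was 4.46 percentage points (67.5% ± 3.12 against 63.0% ± 9.51). The 3 SBK1 sites of the other segment, from 25819078 to 25819110, were at 58.3% ± 12.6 in MET_P and 55.6% ± 4.87 in MET_noP.

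The IFFO1 main segment had the widest spread between libraries of the 4. Its level was 70.04%, 66.1%, 64.6% and 54.1% in MET_P libraries 15, 19, 27 and 31. In MET_noP libraries 13, 17, 25 and 29 it was 58.0%, 75.6%, 23.1% and 40.4%. Library 17 was above every MET_P library, and libraries 25 and 29 were below them all. The means were 63.7% ± 6.79 and 49.3% ± 22.6 (SD, n = 4 each), a difference of 14.45 percentage points. It was 5.72 percentage points without MET_noP library 25 and 23.22 without library 17. CON_P libraries 14, 18, 26 and 30 had 34.8%, 36.4%, 15.6% and 63.6%. CON_noP libraries 12, 16, 24 and 28 had 61.7%, 25.5%, 43.2% and 48.8%. The highest and the lowest control-diet library were both in CON_P.

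All 16 sites of this IFFO1 segment had the higher mean in MET_P, by 5.4 to 17.9 percentage points. Its sites moved together from library to library, with a median Pearson's r between sites of 0.938 over the 16 libraries, a description only, since neighbouring sites share reads. The site at 103858033 was below both of its neighbours in 16 of 16 libraries, by a mean of 21.0 percentage points. It still followed the segment, at 41.7% ± 4.15 in MET_P and 26.2% ± 11.1 in MET_noP (SD, n = 4 each). Further along the gene, the 3 sites from 103859801 to 103859872 were lower in MET_P (33.3% ± 6.80 against 38.7% ± 6.19). The 3 sites from 103864090 to 103864144 were higher (70.3% ± 16.2 against 56.9% ± 25.8), a difference of 13.31 percentage points that was 0.591 without MET_noP library 25.

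The PRAME main segment was the less methylated in MET_P, where only its mean over all sites varied little. At its pairs of positions 1 bp apart, described below, the MET_P SD was 9.69 at the lower and 11.4 at the higher positions. The segment level was 19.2%, 25.6%, 18.2% and 21.8% in MET_P libraries 15, 19, 27 and 31. In MET_noP libraries 13, 17, 25 and 29 it was 43.4%, 17.3%, 46.1% and 51.7%. The separation between groups was broken by library 17, which had the lowest value of all these 8 libraries. The means were 21.2% ± 3.28 and 39.6% ± 15.3 (SD, n = 4 each), a difference of -18.46 percentage points, and -25.89 without library 17. CON_P libraries 14, 18, 26 and 30 had 66.0%, 29.1%, 37.6% and 17.6%. CON_noP libraries 12, 16, 24 and 28 had 20.2%, 27.4%, 24.6% and 36.7%. CON_P library 14 was the highest of the 16, and the other control-diet libraries overlapped.

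All 17 sites of the segment had the lower mean in MET_P, as did 48.1% of all sites in the table, with differences of -24.3 to -8.5 percentage points. The methylation level changed sharply along PRAME. The 12 sites from 71016436 to 71016559, which form the other segment, were almost fully methylated, with group means of 94.2% to 95.7%. There, 6 sites had the higher and 6 the lower mean in MET_P. One of these 12 sites stood apart, 71016496, at 87.5% ± 15.9 in MET_P, 67.8% ± 13.1 in MET_noP, 86.2% ± 7.70 in CON_P and 70.4% ± 10.3 in CON_noP (SD, n = 4 each). With both diets its mean was thus the higher in the pregnancy group, opposite to the MET_P difference in the main segment.

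**Figure D2:**
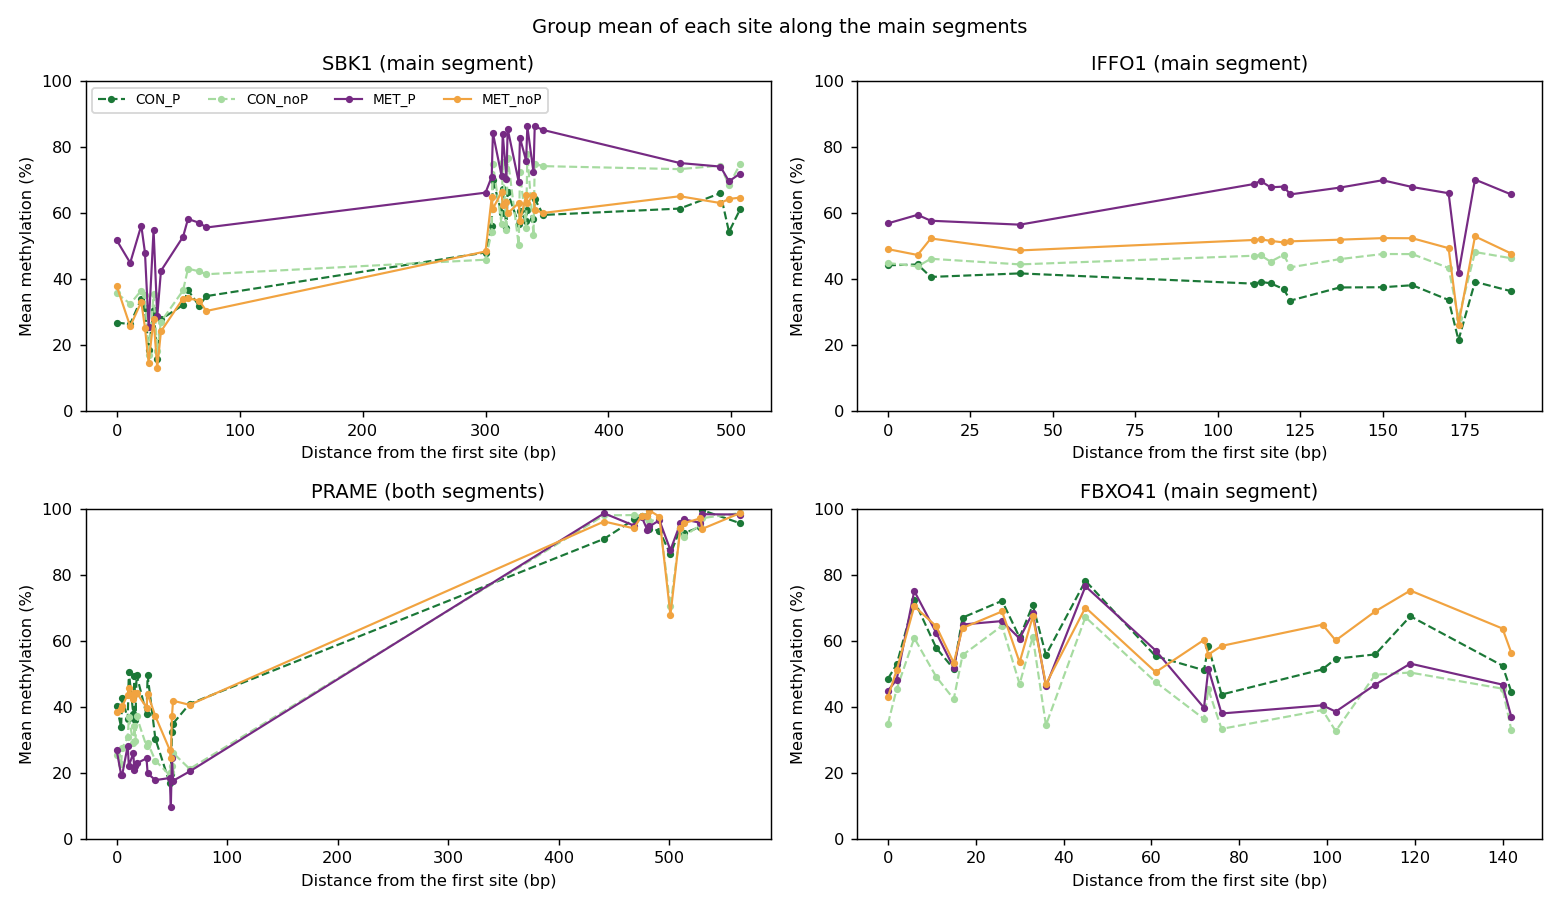
Group mean methylation (%) of each site against its distance (bp) from the first site plotted, in the main segments of SBK1, IFFO1 and FBXO41 and in both PRAME segments, with solid lines for the RPM groups and dashed lines for the control diet. MET_P lies above the other groups along SBK1 run 1 and IFFO1. In PRAME the groups differ at the start and meet above 90% further on, except at 1 site. In FBXO41 the RPM groups part only in the right portion.

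FBXO41 differed between MET_P and MET_noP in only a part of its main segment. Over all 21 sites, MET_P libraries 15, 19, 27 and 31 had 63.1%, 49.6%, 46.5% and 52.9%. MET_noP libraries 13, 17, 25 and 29 had 64.9%, 49.8%, 64.5% and 62.2%. The groups overlapped, with MET_P library 15 at the level of MET_noP and MET_noP library 17 at the level of MET_P. The means were 53.0% ± 7.23 and 60.3% ± 7.14 (SD, n = 4 each), a difference of -7.29 percentage points. CON_P libraries 14, 18, 26 and 30 had 74.2%, 54.2%, 48.5% and 56.0%. CON_noP libraries 12, 16, 24 and 28 had 48.6%, 32.4%, 50.6% and 54.1%. CON_P library 14 and CON_noP library 16 marked the highest and the lowest value of the gene's main segment in the 16 libraries.

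The FBXO41 segment parted at the positions 11181644 and 11181645, which are 1 bp apart, as the cytosines of 1 CpG on opposite strands would be. This division was chosen after the values were seen. The left run held 11181645 and the 12 sites before the pair, and the right run held 11181644 and the 7 sites after it. The left run was at 59.5% ± 5.04 in MET_P and 58.4% ± 9.06 in MET_noP (SD, n = 4 each), and 7 of its 13 sites had the higher and 6 the lower mean in MET_P. Its difference of 1.13 percentage points was -3.38 without MET_noP library 17 and -0.887 without MET_P library 31. In the right run, MET_P libraries 15, 19, 27 and 31 had 66.9%, 35.8%, 34.98% and 32.4%, and all 8 sites had the lower mean in MET_P, with differences of -24.4 to -16.99 percentage points. MET_noP libraries 13, 17, 25 and 29 had 67.3%, 57.7%, 66.0% and 62.9% there. The right run differed by -20.97 percentage points, by -29.11 without MET_P library 15 and by -17.59 without MET_P library 31. With the control diet, the right run was at 74.8%, 61.0%, 36.3% and 38.3% in CON_P libraries 14, 18, 26 and 30, and at 24.8% to 55.8% in CON_noP. Of the MET_P libraries, 3 were below the whole of MET_noP and library 15 stood within its range, but several control-diet libraries were about as low as those 3. At the pair itself, 11181644 differed by -20.56 percentage points and 11181645 by -4.26.

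Outside this segment FBXO41 varied less. The 4 sites from 11183429 to 11183495 had group means of 76.0% to 77.6%, and the 6 sites from 11185513 to 11185582 had 89.8% to 91.0%. The single site at 11168132 was the gene's low point, with group means of 8.16% to 12.6%. Within the left run, 11181608 was below both neighbours in 16 of 16 libraries, by a mean of 24.2 percentage points.

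Positions 1 bp apart also allowed a comparison within SBK1 and PRAME. SBK1 had 6 such pairs, between 25820252 and 25820287. At the lower position of each pair MET_P minus MET_noP was 5.0 to 10.4 percentage points, and at the higher position 21.5 to 25.7. The lower positions averaged 71.7% ± 11.8 in MET_P and 64.7% ± 15.3 in MET_noP, and the higher positions 84.8% ± 6.27 and 60.9% ± 27.9 (SD, n = 4 each). Without MET_noP library 25 these differences were 0.0354 and 12.74 percentage points. In that library the higher positions were at 27.2% and the lower positions at 43.9%. PRAME had 7 pairs, with a difference of -15.78 percentage points at the lower positions (-24.17 without MET_noP library 17) and -21.75 at the higher. In MET_P libraries 15, 19, 27 and 31 the lower PRAME positions were at 32.9%, 21.2%, 10.6% and 28.4%. The higher PRAME positions were at 6.0%, 32.4%, 23.3% and 13.9%.

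Over the whole table, the 9469 pairs had a median absolute difference within a library of 5.26 percentage points, and the 3900 pairs with a mean of 20% to 80% had 8.78. The medians were 15.2 for SBK1, 8.82 for PRAME and 15.6 for the FBXO41 pair. Depth at each position above the study's minimum is unknown, and its part in these differences was not tested.

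**Figure D3:**
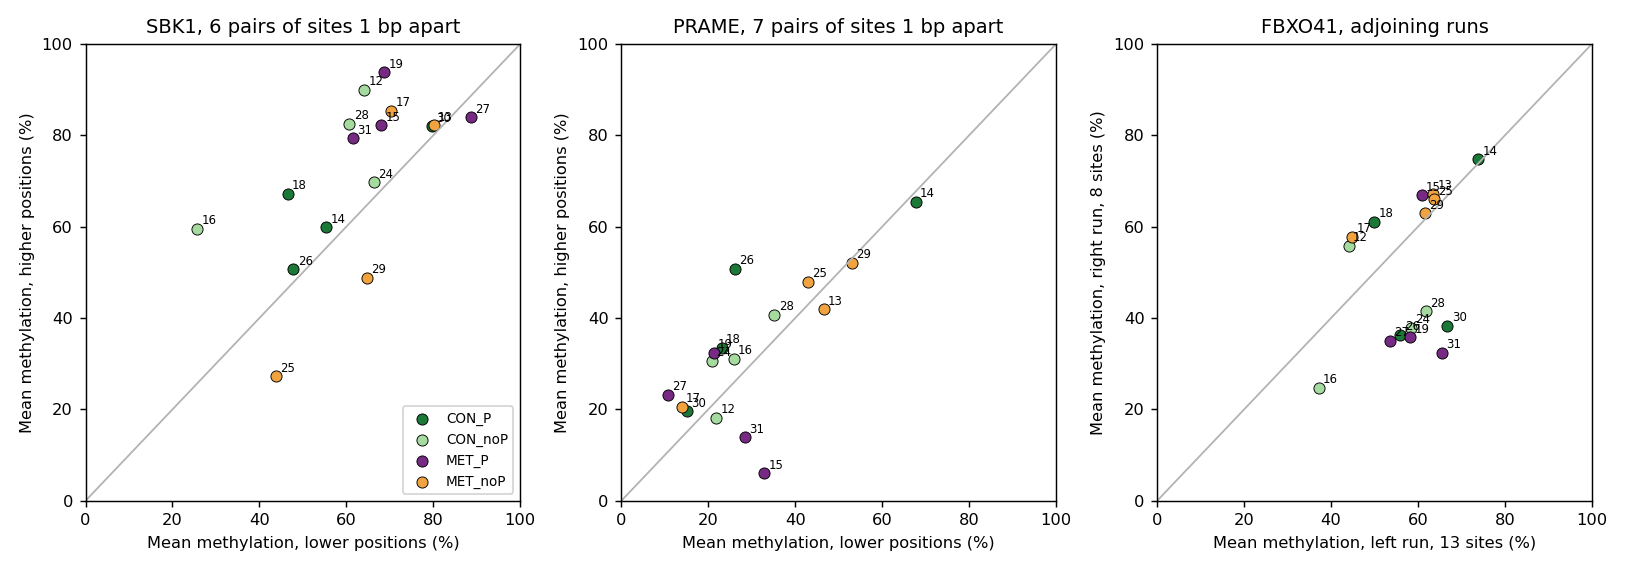
Mean methylation (%) in each library, with colours for the groups and the library number beside each point, of the lower against the higher positions of pairs 1 bp apart in SBK1 (6 pairs) and PRAME (7 pairs), and of the left run (13 sites) against the right run (8 sites) of FBXO41. The grey line marks equal values. MET_noP libraries 25 and 29 and MET_P library 27 lie below it for SBK1, and for FBXO41 libraries of 3 groups lie below it, namely MET_P libraries 19, 27 and 31, CON_P libraries 26 and 30 and CON_noP libraries 16, 24 and 28.

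Because these genes were chosen on MET_P against MET_noP, the share of their sites past a limit in that contrast is a description. Of the 120 sites, 51 had group means more than 15 percentage points apart, where 2.45% of all sites did. A lack of overlap between the libraries was rarer. In 1 site, SBK1 25819980, every MET_P library was above every MET_noP library (1.64% of all sites), with 26.1%, 30.95%, 38.5% and 19.4% in libraries 15, 19, 27 and 31. MET_noP libraries 13, 17, 25 and 29 had 19.2%, 18.2%, 9.4% and 5.6% there, so libraries 31 and 13 almost met. In 1 site, PRAME 71016475, every MET_P library was lower (1.26% of all sites), at 93.7% ± 2.30 against 97.9% ± 1.505 (SD, n = 4 each). Averaged over all its sites, SBK1 had the 4th highest difference (15.55 percentage points) of 5726 genes with at least 5 sites, and IFFO1 the 27th highest (10.46). PRAME had the 22nd lowest (-10.21) and FBXO41 the 250th lowest (-4.57). Without MET_noP library 25 the gene means differed by 9.59 percentage points for SBK1 and 3.19 for IFFO1. Without MET_noP library 17 they differed by 16.75 for IFFO1 and -7.06 for FBXO41.

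The libraries of the control diet were not used to choose these genes, and CON_P against CON_noP was therefore the comparison that could be tested. With limma on M values, a log2 ratio of the methylated to the unmethylated share, 0 of the 120 sites passed the Benjamini-Hochberg adjusted threshold of 0.05, and 0 of all 199395 sites did (0%). The study's logistic regression on read counts did call sites in this comparison. Its list of genes more methylated with pregnancy on both diets included PRAME. The study also named PRAME among genes with decreased methylation in MET_P, at several CpG sites. In the deposited values, PRAME 71016061 differed by 19.71 percentage points in CON_P minus CON_noP, but by -20.18 in MET_P minus MET_noP. The absence of calls here therefore applies to limma on percentages. Without adjustment, limma gave 5 sites with p under 0.05, 4.17% of the members against 3.93% of all sites. This share was close to the background. Of the 5, 4 were the more methylated in CON_P (2.53% of all sites) and 1 the less methylated (1.4% of all sites).

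The site in FBXO41 was 11181608, with 61.8%, 45.8%, 60% and 55.2% in CON_P libraries 14, 18, 26 and 30, and 27.8%, 17.9%, 44.3% and 47.9% in CON_noP libraries 12, 16, 24 and 28 (unadjusted p = 0.0392, adjusted p = 1, limma). SBK1 and IFFO1 had none, and the other 4 sites were in PRAME, 13.8% of its 29 sites against 3.93% of all sites. They were 71016061 at 40.9% ± 14.7 in CON_P against 21.2% ± 3.27 in CON_noP, 71016496, given above, and 71016525 at 99.5% ± 0.926 against 97.2% ± 1.13 (SD, n = 4 each). The one in the opposite direction was 71016559, at 95.6% ± 2.15 against 98.7% ± 1.75. Near full methylation, as at 71016525 and 71016559, a small change in percent shifts the M value strongly. The groups overlapped at all 5 sites, and at none of the 120 sites were the control-diet groups apart (1.22% of all sites were apart with CON_P higher and 0.77% with CON_P lower).

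None of the 10 segments passed in CON_P against CON_noP by a two-sided exact permutation test, which with 4 libraries against 4 cannot give a p under 0.0286. The means of the 4 main segments differed in the direction opposite to the RPM groups, by less than 1 SD of the wider group except in FBXO41. SBK1 was lower in CON_P by a difference of -5.29 percentage points (exact p = 0.514) and IFFO1 by -7.20 (exact p = 0.571). PRAME was higher in CON_P by 10.34 percentage points (exact p = 0.429) and FBXO41 by 11.78 (exact p = 0.171). After Benjamini-Hochberg adjustment over the 10 segments the exact permutation p was 0.939 for each of these. When single libraries were omitted, the SBK1 difference ranged from -11.70 (without CON_P library 30) to -1.54 (without CON_P library 26) and the FBXO41 difference from 6.46 (without CON_P library 14) to 15.02 (without CON_P library 26). Without CON_P library 26 the IFFO1 difference was 0.121, and without CON_P library 14 the PRAME difference was 0.867. The direction was not uniform within the SBK1 main segment. At its pairs of positions 1 bp apart, CON_P minus CON_noP was 3.19 percentage points at the lower positions and -10.52 at the higher.

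The gene means had the same directions, with CON_P minus CON_noP at -5.21 percentage points for SBK1, -3.30 for IFFO1, 6.13 for PRAME and 7.23 for FBXO41. Exact permutation p-values were 0.514, 0.686, 0.457 and 0.114, and 0.686, 0.686, 0.686 and 0.457 after adjustment over the 4 genes. For FBXO41, all 21 sites of the main segment had the higher mean in CON_P (55.4% of all sites did), in the left run (13 sites) as in the right run (8 sites). At 11.25 and 12.65 percentage points the runs differed little in this comparison.

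**Figure D4:**
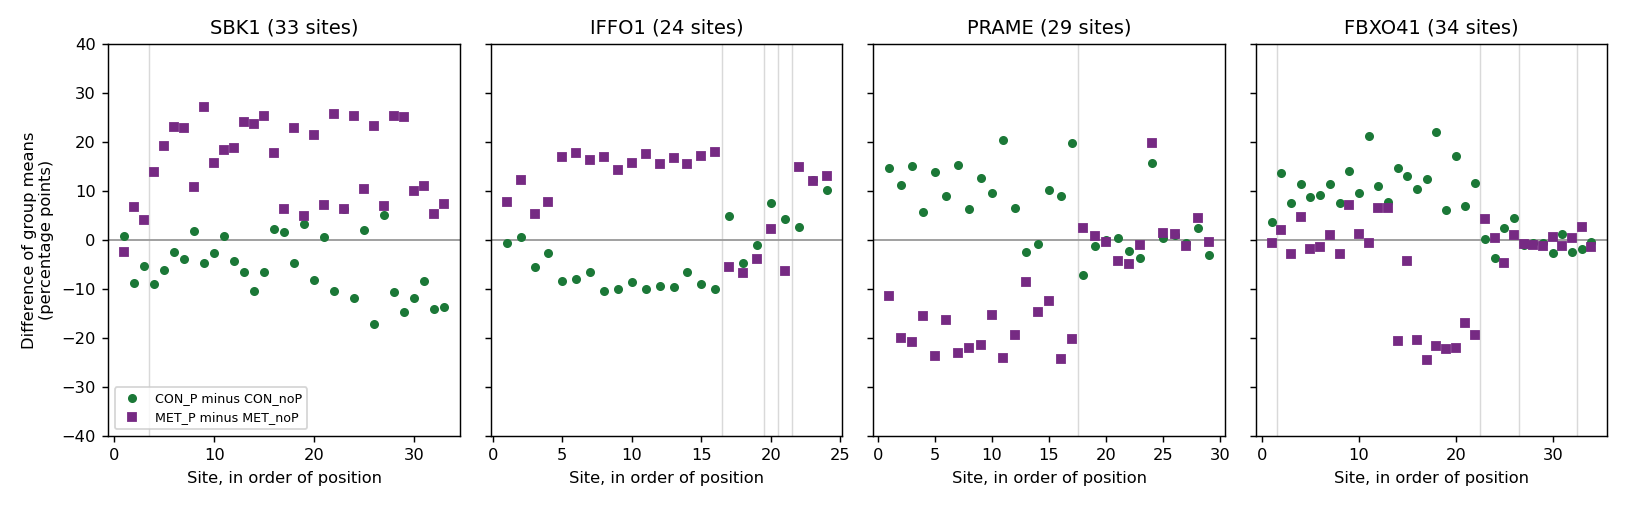
Difference of group means (percentage points) at each of the 120 sites, in order of position, for CON_P minus CON_noP (circles) and MET_P minus MET_noP (squares), with grey lines between segments. Squares lie above circles at 29 of 30 sites of the SBK1 main segment (25820274 is the exception) and at all 16 of IFFO1, and below them at all 17 of PRAME. In FBXO41 the squares drop to between -16.99 and -24.4 in the right run.

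Between the diets, MET_P against CON_P and MET_noP against CON_noP each share 4 libraries with the contrast that chose the genes and are given as values. The IFFO1 main segment had the widest gap between diets within the pregnancy outcome, at 63.7% in MET_P and 37.6% in CON_P, a difference of 26.12 percentage points. SBK1 was 17.56 percentage points higher in MET_P than in CON_P, PRAME differed by -16.37 and FBXO41 by -5.16. Of the 120 sites, 43 had means more than 15 percentage points apart (4.26% of all sites), and at 3 sites every MET_P library was higher (1.92% of all sites). These were SBK1 25820281 and 25820294 and IFFO1 103858049.

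Within the no-pregnancy outcome, FBXO41 and PRAME were the higher in MET_noP, by 13.91 and 12.43 percentage points in their main segments. SBK1 differed by -4.56 and IFFO1 by 4.46. The SBK1 mean hid opposite directions at its pairs of positions 1 bp apart. There MET_noP minus CON_noP was 10.54 percentage points at the lower positions and -14.55 at the higher. At 6 sites every MET_noP library was above every CON_noP library (1.85% of all sites). One was PRAME 71016061, and the other 5 were in the right run of FBXO41, at 11181644, 11181648, 11181671, 11181674 and 11181691. The whole right run was at 63.5% ± 4.24 in MET_noP and 40.0% ± 12.8 in CON_noP (SD, n = 4 each), with libraries 12, 16, 24 and 28 of CON_noP at 55.8%, 24.8%, 37.8% and 41.5%. All of these were below the lowest MET_noP library, although neighbouring sites share reads and do not count separately.

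SBK1 and IFFO1 lie on different chromosomes but ranked the libraries alike. In the 8 control-diet libraries, the main segments had Pearson's r of 0.960 (exact permutation p = 0.000198, adjusted p = 0.00119) and Spearman's rho of 1 (exact permutation p = 4.96e-05, the smallest possible, adjusted p = 0.000298), both two-sided. Without the 2 libraries farthest from the median of SBK1, r was 0.938, and centred within CON_P and CON_noP it was 0.958. These were 2 of the values from 6 pairs of genes, looked at after the levels had been seen. None of the other 5 pairs passed, with the adjusted exact permutation p from 0.353 to 0.728 for r and from 0.115 to 0.793 for rho. For PRAME and SBK1 r was -0.520 (n = 8, exact permutation p = 0.176), and PRAME and FBXO41 had r = 0.667, which was 0.219 without the 2 farthest libraries.

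**Figure D5:**
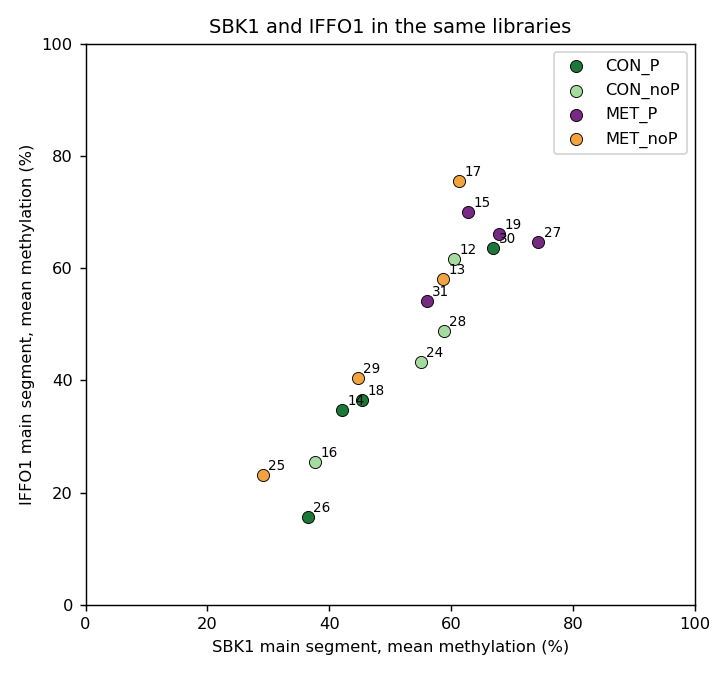
Mean methylation (%) of the SBK1 main segment against that of the IFFO1 main segment, with 1 point per library, coloured by group and numbered. Libraries 25, 26 and 16, from 3 different groups, are low for both genes. Libraries 27, 19 and 15 of MET_P are among those high for both, as are CON_P library 30 and MET_noP library 17.

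Other genes followed these patterns at least as closely. Over the gene means of the 16 libraries, compared with 5725 other genes, SBK1 was most like SRRM4 (r = 0.919), SP6 (0.914) and FAM131A (0.912), and IFFO1 came 6th (0.904). IFFO1 was most like EPS8L2 (r = 0.975), FHDC1 (0.973) and SRRM4 (0.959), and SBK1 came 17th (0.904). PRAME was most like FAM163B (0.913), DENND1B (0.889) and FAM234A (0.875), and FBXO41 most like HDAC4 (0.868), SDK2 (0.853) and ADGRA1 (0.843). These values are descriptions over the same libraries. All 4 genes varied more between libraries of 1 group than most genes did, with a pooled within-group SD of 13.9 percentage points for IFFO1, 11.2 for SBK1, 7.67 for PRAME and 5.12 for FBXO41, where the median of 5726 genes was 2.66.

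Sites within 50 kb of the members mostly lacked these differences. Near FBXO41, CCT7 (4 sites) differed by 1.33 percentage points between MET_P and MET_noP, SMYD5 (3 sites) by 0.432 and the 1 site of EGR4 by 3.64. Near IFFO1, 2 sites of CHD4 were at 6.35% in MET_P and 6.72% in MET_noP. Among the flanking genes only LAT, an adaptor of T cell receptor signalling 46135 bp from the SBK1 sites, had a difference over 5 percentage points, at 70.4% ± 6.0 in MET_P and 56.2% ± 8.82 in MET_noP (SD, n = 4 each, 3 sites). Its control-diet means were 50.2% ± 12.8 in CON_P and 60.9% ± 8.06 in CON_noP. No other gene or site lay within 50 kb of the PRAME sites in the table.

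Genes related to the 4 members were read from lists by limma on gene means. Of 6 kinases related to SBK1 with at least 2 sites, none passed even an unadjusted p under 0.05 in either outcome comparison. Among 15 intermediate filament and nuclear lamina genes, LMNA, which encodes the lamins A and C, was lower in MET_P (15.03% ± 3.18 against 23.0% ± 7.10, unadjusted p = 0.0366, adjusted p = 0.869, limma). Another list held 9 genes, which were PRAME partners, retinoid receptors, cancer-testis antigens or other MAGE family genes. Of these, the MAGE family gene MAGEL2 (3 sites) was higher in MET_P (53.2% ± 5.24 against 43.6% ± 2.24, unadjusted p = 0.0306, adjusted p = 0.866, limma). Of 29 F-box and SCF genes, FBXL5 and FBXO34, named after their values were seen, were higher in MET_P at unadjusted p, by 3.27 and 3.32 percentage points. The widest differences among the kinases and F-box genes, TSSK6 at -9.48 and FBXO39 at 9.53 percentage points, had an unadjusted p of 0.110 and 0.0971 (limma). The shares of all 8707 genes at unadjusted p were 3.34% higher and 2.18% lower in MET_P, none passed after adjustment, and in CON_P against CON_noP no listed gene reached an unadjusted p under 0.05 (2.76% of all genes higher and 1.16% lower). The widest differences there were -6.27 percentage points for RXRB, 4.20 for TSSK6, 4.14 for EMD and -4.07 for FBXO39.

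Methylation at marker genes does not measure their expression, and it was used only to describe the cell mix. Leukocyte genes had sites in 14 of 21, with group means of 50.9% to 53.9%. Epithelial genes had sites in 14 of 17 (29.4% to 31.8%), and stromal genes in 9 of 14 (32.0% to 33.9%). Single libraries stood out. Library 14, the highest for PRAME and FBXO41, had the highest mean at leukocyte genes (59.5%, others 47.9% to 54.0%). It was also high at epithelial genes (36.7%) and had the highest mean over all sites (65.1%), so its leukocyte value does not stand alone. Library 25, the lowest for SBK1, had the highest at epithelial genes (38.8%), and library 17, high for IFFO1 and low for PRAME, had the lowest at both lists (47.9% and 23.3%). Their part in the differences was not tested. Mean methylation over all sites was 62.5% to 63.9% in the groups.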

How the data were processed

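Reads had been adapter-trimmed (Trim Galore), mapped with Bismark to the ARS-UCD1.2 assembly and summarised per cytosine in SeqMonk, and sites without a value or at zero had been discarded. The authors deposited the percent methylation of each position in 16 libraries, without read counts, so the study's logistic regression on counts could not be run. The study set a minimum read count per position, but depth above it and the precision of a single value are unknown. Some values moved in coarse steps, as a small read count would give. In CON_P library 26, SBK1 sites 25819980, 25819973 and 25819977 were at 6.25%, 12.5% and 18.75%. Columns were assigned to groups by the group name and library number in their headers. Sites with the 4 symbols were taken from the table, and M = log2((percent + 1)/(100 - percent + 1)) was tested per site with limma 3.58.1 (R 4.3.3), with 8 libraries per comparison and Benjamini-Hochberg adjustment over 199395 sites. Segment and gene means were compared by exact permutation tests in Python 3.11.15 over 70 arrangements. Both were run on simulated data only to check the code. For limma the simulated shift was far larger than the differences of the members, so power at their size was not examined. All 4 genes were named, with the 3 most similar genes each, flanking genes within 50 kb, and the listed related genes with the widest differences. Members and lists were chosen with earlier results of these data known. Gene symbols matched the RefSeq table for 3 of 4 members. Sequences, exons and introns were not analysed here.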

Additional observations from a re-analysis of the deposited data

Results flagged for a closer look

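A library stood far from the others of its group in 4 of 56 segment and gene values examined, and chance alone would give about 1 in 20. In those 4, the gap to the next library was 0.837 to 0.863 of the range of the group. The values are not independent, since a gene mean contains its segments, so 4 of 56 is not read as an excess over chance. In the highly methylated PRAME segment, CON_noP library 24 had 91.78% where the others had 94.8% or more, and MET_P library 31 had 91.81% where the others had 96.6% or more. Over all PRAME sites, MET_P library 19 had 54.94% and the others 50.8% to 51.3%. Over all FBXO41 sites, MET_noP library 17 had 60.93% and the others 70.3% to 71.8%.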

How the results depend on the processing

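The count of 5 member sites at an unadjusted p under 0.05 in CON_P against CON_noP was 3 without transformation, 2 with libraries centred on the same median, 3 among sites of 10% to 90%, and 1 (without CON_P library 26) to 9 (without CON_P library 30) when each library was left out, with 2 without CON_noP library 24 and 3 without CON_noP library 28 or CON_P library 18. With sets of consecutive library numbers as a replicate block it was 3. The sets did not pair the libraries (correlations of -0.0492 to 0.00533). Over all sites, 227 passed adjustment with an offset of 0.1 percentage points and 1 with all 16 libraries in 1 model. By the median over sites, CON_P minus CON_noP turned to 5.91 in SBK1 segment 1, 0.750 in IFFO1 segment 2 and -1.32 in PRAME segment 2, where MET_P minus MET_noP became -0.708. With libraries centred on the same mean, it turned to -0.753 in PRAME segment 2 and -0.0367 in FBXO41 segment 3. A gap of 1000 bp joined SBK1 (15.55) and PRAME (-10.2) into single segments. Leaving out 1 library, CON_P minus CON_noP ranged from -15.86 to 0.121 in IFFO1 segment 1, -5.19 to 4.14 in segment 2, -2.17 to 15.9 in segment 5, -9.66 to 2.91 over IFFO1, -0.657 to 0.633 in PRAME segment 2, -0.313 to 2.78 in FBXO41 segment 3 and -2.15 to 0.679 in FBXO41 segment 4. These turns came without libraries 12, 16, 18, 24, 26 or 30. MET_P minus MET_noP, which has no test, also turned in SBK1 segment 1 (2.76, but -2.99 by the median over sites and -2.30 without library 19) and in FBXO41 segment 3 (0.216, but -2.19 to -0.260 without library 13, 17, 19 or 27). The cause was not tested. Of all segment and gene differences recomputed, 90 of 98 at other settings and 204 of 224 with a library left out kept their direction, and no tested one passed the threshold after adjustment. Depth above the study's minimum is unknown and limits every single-site value.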
